A study of Mus musculus with 2 samples.

Results

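The genes described here are 10 genes of MHC class I antigen presentation, taken by symbol from the 22756 gene rows of a ribosome profiling data set of mouse ileum. They are the class I chains B2m, H2-K1 and H2-D1, the peptide loading genes Tap1, Tap2 and Tapbp, the immunoproteasome subunits Psmb8, Psmb9 and Psmb10, and the regulator Nlrc5. All 10 were found in both libraries. The libraries hold ribosome-protected mRNA fragments (footprints) of ileum taken on postnatal day 21 from C57BL/6 mice of wild type genotype. The fed condition had 1 library and the condition fasted during 48 h had 1, with no genetic change or other agent named for either. The sources used here give no number of animals per library.

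Almost every nucleated cell shows fragments of its own proteins on MHC class I molecules, where CD8 T cells and other lymphocytes inspect them. The proteasome cuts the proteins, the TAP transporter carries the peptides into the endoplasmic reticulum, and tapasin and its partners load them onto a heavy chain paired with beta-2 microglobulin. Interferon gamma induces much of this pathway, and it exchanges the catalytic subunits of the standard proteasome for those of the immunoproteasome. In the intestine the epithelium as well as the leukocytes of the mucosa express class I.

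The class I chains are known for a promoter module, named SXY, through which Nlrc5 acts, and the sequences are shown here to place its letters in these genes; whether they bear on the footprint values was not tested. RefSeq promoter windows (GRCm38.p6) were matched for 8 of the 10 members, the exceptions being Tap2 and Nlrc5. In B2m, H2-K1 and H2-D1 the letters TGACG, the core of the X2 box, and ATTGG, a reversed CCAAT box, stood exactly 20 bases apart. The stretches run 5′ to 3′ on the gene's strand, with both motifs in capitals, and their places are chr2:122147609-122147638 on the plus strand, chr17:34000359-34000388 on the minus strand and chr17:35262993-35263022 on the plus strand. For comparison, the last line gives Tap1 from its only TGACG, at chr17:34187470-34187499 on the plus strand, where no ATTGG follows at that distance.

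B2m: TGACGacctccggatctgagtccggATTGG

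H2-K1: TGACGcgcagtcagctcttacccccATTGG

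H2-D1: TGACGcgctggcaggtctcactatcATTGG

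Tap1: TGACGacagagggtcctgccctcaatctgg

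The pair at this spacing was found in 31 of 32851 promoter windows of 300 bases (250 before and 50 after a start), or 0.0944%, when both strands were searched. The spacing was chosen after the sequences were seen. Of the other class I heavy chains 14 had a promoter window, and 1 of them, H2-M3, held the pair. Longer stretches of B2m (chr2:122147542-122147644, plus strand) and H2-K1 (chr17:34000353-34000464, minus strand) show what lies before it, with every motif searched in capitals.

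B2m: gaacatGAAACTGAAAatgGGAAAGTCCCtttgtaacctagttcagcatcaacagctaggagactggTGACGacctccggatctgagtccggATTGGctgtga

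H2-K1: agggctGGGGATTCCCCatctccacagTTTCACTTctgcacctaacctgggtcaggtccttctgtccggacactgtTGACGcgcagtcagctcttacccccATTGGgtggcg

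The first capitals of B2m match the interferon-stimulated response element (GAAA, any 2 bases, GAAA), which 3.44% of all promoter windows hold, and they contain the interferon regulatory factor core AANNGAAA, found in 23.9%. The next capitals match the NF-kB motif, found in 8.46%. H2-K1 holds the NF-kB motif first and then the interferon regulatory factor core in reverse, without the longer element. H2-D1 holds that same pair at positions -171 to -161 and -150 to -143 before its start. Among the immunoproteasome genes, Psmb8 held the letters TTCNNNGAA of the gamma-activated site (8.30% of windows) and Psmb9 held TGACG, which 20.8% of windows hold, and CCAAT, which 37.4% hold. The Psmb9 and Tap1 starts listed by RefSeq lie head to head with 225 bases between them, so both genes' windows cover the same stretch and the same TGACG. By the GENCODE annotation, used for the gene coordinates given below, Psmb9 reaches further and both genes share 212 exonic bases. A match describes these letters only, in these windows.

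Gene-assigned footprints numbered 5558620 in the library from fed and 5434252 in that from fasted mice. Each condition had n = 1, so no test between conditions can be run, and all differences are between these libraries. Reads that overlapped no counted feature made up 13.4% of the fed and 21.0% of the fasted file, and reads aligned to several places 41.4% and 39.9%. All 14 epithelial markers had reads in both libraries, including the ileal genes Fabp6 (28873 fed and 16615 fasted counts) and Slc10a2 (2458 and 2390). No markers of other gut segments were set beside them, so the tissue label was not tested. Levels are given as CPM, the count per 1e6 counts after TMM scaling, and are compared between genes only as CPM per kb of coding sequence. Ratios and shares of counts between genes are not corrected for length. They serve to compare the libraries and do not give the relative levels of the genes. Ratios are fasted over fed with a 95% exact interval that covers counting error only. A gene with at least 30 counts in sum was called higher or lower when its ratio reached 1.5-fold and the interval excluded 1.

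Footprints of the 3 immunoproteasome subunits were 2.14- to 2.71-fold lower in the fasted library, while the class I heavy chains and tapasin were within 1.13-fold of the fed level. Tap1 was lower as well, Tap2 fell just short of the threshold, and Nlrc5 had too few reads to tell. In all, 4 of 10 members were lower and 0 were higher, where 17.3% of the 11333 genes with enough counts were lower and 17.3% higher, 34.6% in either direction. These shares are the background for every count of called genes under TMM scaling given below. The median log2 ratio was -0.65 over the members and 0.0028 over all those genes. With plain CPM, scaled by library total only, every log2 ratio shifts by -0.32. There 6 members were lower and 0 higher, where 31.2% of all genes were lower and 8.86% higher (40.1% in either direction), and the medians were -0.97 and -0.32.

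**Figure D1:**
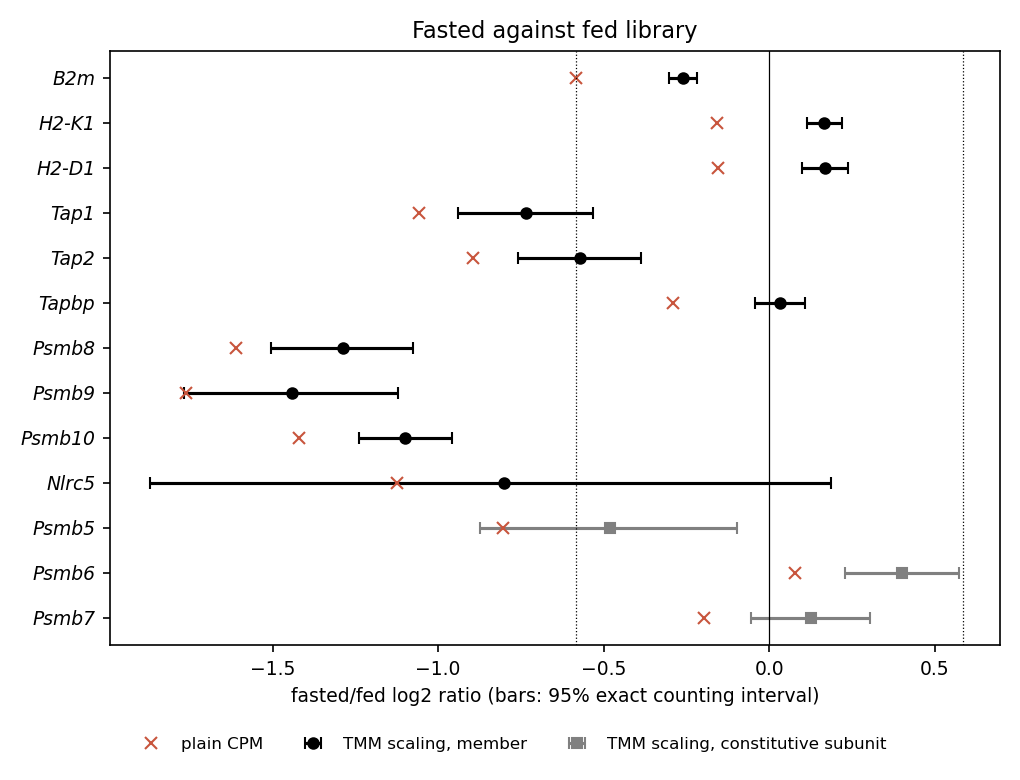
Fasted/fed log2 ratio of the 10 members (circles) and of the 3 constitutive catalytic subunits (squares), with 95% exact counting intervals under TMM scaling, and the same ratio under plain CPM (crosses); dotted lines mark 1.5-fold. Psmb8, Psmb9 and Psmb10 lie between -1.44 and -1.10, apart from H2-K1, H2-D1 and Tapbp near 0.

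B2m, the light chain that every class I heavy chain needs to reach the cell surface, had 11564 fed and 7540 fasted counts. These were 1860 CPM (interval 1826 to 1894) and 1552 CPM (1517 to 1587), a log2 ratio of -0.26 (-0.30 to -0.22). The fasted value was the lower, and the intervals did not overlap, but the difference of 1.20-fold stayed under the threshold. Its log2 ratio with plain CPM was -0.58. B2m lies on chromosome 2 (122147686 to 122153083, plus strand, mm10).

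H2-K1, a classical heavy chain that presents peptides to CD8 T cells (chromosome 17, 33996017 to 34000347, minus strand), had 6182 fed and 5421 fasted counts. That was 994 and 1116 CPM, a log2 ratio of 0.17 (0.11 to 0.22), which became -0.16 with plain CPM. H2-D1, the other classical heavy chain (chromosome 17, 35262730 to 35267499, plus strand), had 3526 and 3099 counts, or 567 and 638 CPM. Its log2 ratio of 0.17 (0.10 to 0.24), or -0.15 with plain CPM, was close to that of H2-K1, so the direction of both heavy chains depended on the scaling. Their ratio to each other does not depend on it: H2-K1 had 1.75 counts for each H2-D1 count in both libraries, and the ratio of these ratios was 0.998 (exact interval 0.939 to 1.06). B2m was lower in relation to its partners, with 1.19 counts for each heavy chain count among fed and 0.885 among fasted footprints, a 1.35-fold lower ratio (ratio of ratios 0.743, interval 0.713 to 0.774).

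Heavy chain counts rest on part of each gene. Of all 28-base windows of the coding sequence, 64.5% in H2-K1 and 54.3% in H2-D1 occurred in no transcript of a gene elsewhere, against 100% in B2m, Psmb8, Psmb9, Psmb10, Tapbp and Nlrc5. H2-K1 shared windows with 39 other genes and H2-D1 with 41, and 260 windows were common to both. A read with more than 1 alignment was given to no gene, so the levels of both heavy chains count only part of their footprints.

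The peptide loading genes differed among themselves. Tap1 (chromosome 17, 34187553 to 34197225, plus strand), a chain of the peptide transporter, had 626 fed and 294 fasted counts, or 101 and 60.5 CPM. It was 1.66-fold lower in the fasted library (log2 ratio -0.73, -0.94 to -0.53). Tap2 (chromosome 17, 34203527 to 34216321, plus strand), the other chain, had 690 and 363 counts, or 111 and 74.7 CPM. At 1.49-fold lower (log2 ratio -0.57, -0.76 to -0.39) it was not called, although it was with plain CPM (-0.89) and with upper-quartile scaling (-0.59). Between Tap1 and Tap2 no difference beyond counting error was seen: there were 0.907 Tap1 counts for each Tap2 count fed and 0.810 fasted, with an interval of the ratio of ratios from 0.736 to 1.08.

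Tapbp encodes tapasin, which holds empty class I molecules next to the transporter (chromosome 17, 33915899 to 33929292, plus strand). It had 3153 fed and 2521 fasted counts, or 507 and 519 CPM, a log2 ratio of 0.033 (-0.043 to 0.11; -0.29 with plain CPM). No difference was detectable for it at this depth under TMM scaling. Set against Tapbp, the transporter genes were lower, with 0.417 counts of Tap1 and Tap2 for each Tapbp count fed and 0.261 fasted (ratio of ratios 0.624, interval 0.560 to 0.696). Antisense genes overlap 24.9% of the exonic bases of Tapbp (Gm19412) and 14.7% of those of Psmb8 (Gm20496), a long noncoding RNA gene 14.1% of those of Tap2 (Gm15821, opposite strand), and Tap1 and Psmb9 share 212 exonic bases on opposite strands. The strand setting of the counting is not stated, so reads in these stretches cannot be assigned to one gene.

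The immunoproteasome subunits were the lowest members, in the same order of fold under every scaling used because scaling moves all genes alike. Psmb8, which carries the beta-5i site (chromosome 17, 34197721 to 34201454, plus strand), had 743 fed and 238 fasted counts. Its level was 120 CPM (interval 111 to 128) fed and 49.0 CPM (43.0 to 55.6) fasted, 2.44-fold lower (log2 ratio -1.29, -1.50 to -1.07). Psmb9, with the beta-1i site (chromosome 17, 34181987 to 34187764, minus strand), had 361 and 104 counts, or 58.1 CPM (52.2 to 64.4) and 21.4 CPM (17.5 to 25.9). It was 2.71-fold lower (log2 ratio -1.44, -1.77 to -1.12), the lowest ratio of the 10.

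Psmb10, with the beta-2i site, lies on another chromosome (chromosome 8, 105935735 to 105938444, minus strand). It had 1548 and 565 counts, or 249 CPM (237 to 262) fed and 116 CPM (107 to 126), and was 2.14-fold lower (log2 ratio -1.10, -1.24 to -0.96). Of all 11333 genes, 3.86% had a lower ratio than Psmb9, 5.26% a lower one than Psmb8 and 7.46% a lower one than Psmb10. All 3 subunits also passed a 2-fold threshold, which 9.13% of all genes passed downward. They did not differ among themselves beyond counting error: the ratio of ratios was 0.899 (0.684 to 1.18) for Psmb9 over Psmb8, 0.878 (0.733 to 1.05) for Psmb8 over Psmb10 and 0.789 (0.616 to 1.01) for Psmb9 over Psmb10.

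Nlrc5, the transcriptional activator of class I genes (chromosome 8, 94434356 to 94527272, plus strand), had 29 fed and 13 fasted counts, or 4.66 CPM (3.12 to 6.70) and 2.68 CPM (1.42 to 4.58). The intervals overlapped, and the log2 ratio of -0.80 had an interval from -1.87 to 0.19. Of the scalings tried it was called lower only with plain CPM (-1.12), so at this depth its value settles no direction.

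**Figure D2:**
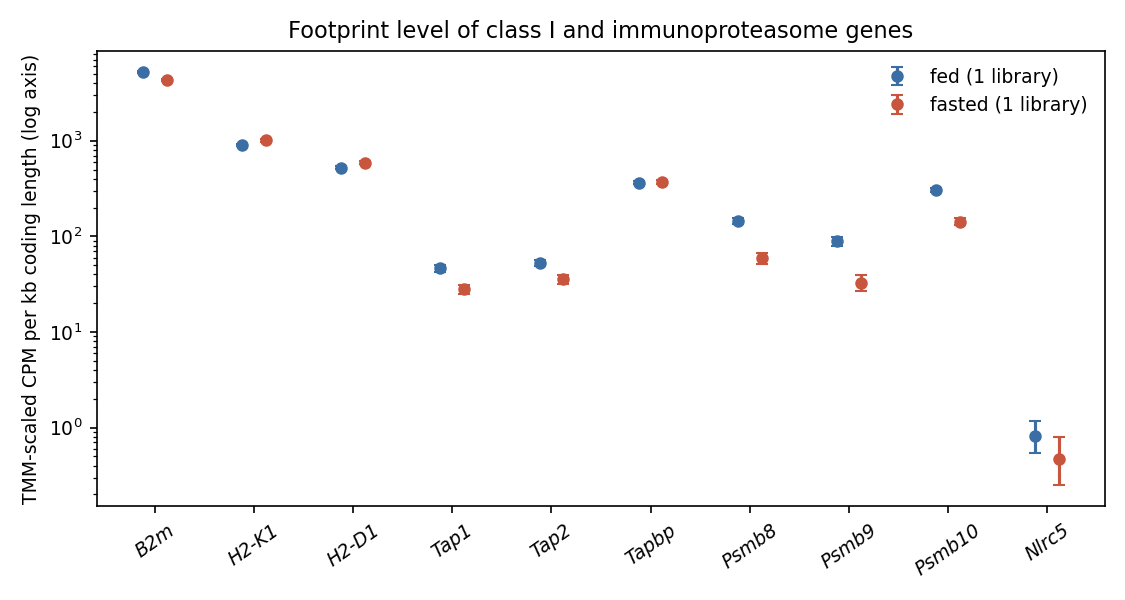
TMM-scaled CPM per kb of coding sequence (log axis) of the 10 members in the fed (blue) and the fasted (red) library, 1 library each, with 95% exact Poisson intervals. B2m is highest at 5211 and 4347 and Nlrc5 lowest at 0.812 and 0.466, and the 3 immunoproteasome subunits sit lower in the fasted library.

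Per kb of coding sequence the members' levels ranged widely. In the fed library the order was B2m (5211 CPM per kb), H2-K1 (898), H2-D1 (522), Tapbp (363), Psmb10 (304), Psmb8 (144), Psmb9 (88.4), Tap2 (52.7), Tap1 (46.4) and Nlrc5 (0.812). Only Tap2 and Tap1 were neighbours with overlapping intervals. In the fasted library the levels per kb were 4347 for B2m, 1008 for H2-K1, 587 for H2-D1, 371 for Tapbp, 142 for Psmb10 and 59.2 for Psmb8. Then came Tap2 at 35.5, Psmb9 at 32.6, Tap1 at 27.9 and Nlrc5 at 0.466. Psmb9 stood below Tap2 in that order, but the intervals of Tap2 and Psmb9 overlapped, as did those of Psmb9 and Tap1. Counted over the windows found at 1 place, the heavy chains stood higher, at 1392 CPM per kb for H2-K1 and 962 for H2-D1 in the fed library, with the same order.

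Each immunoproteasome subunit replaces a constitutive one, Psmb8 in place of Psmb5, Psmb9 in place of Psmb6 and Psmb10 in place of Psmb7, and their ratio within a library does not depend on scaling. None of the constitutive subunits was called under TMM scaling. Psmb5 had 159 fed and 89 fasted counts (log2 ratio -0.48, -0.87 to -0.10; -0.80 and called lower with plain CPM), Psmb6 548 and 566 (0.40, 0.23 to 0.57; 0.079 with plain CPM) and Psmb7 555 and 473 (0.12, -0.055 to 0.30; -0.20 with plain CPM). In every pair the immunoproteasome subunit took a smaller part in the fasted library. Psmb9 made up 39.7% of the counts of Psmb9 and Psmb6 in the fed library (exact Clopper-Pearson interval 36.5% to 43.0%) and 15.5% (12.9% to 18.5%) in the fasted library. For Psmb10 with Psmb7 the share was 73.6% (71.7% to 75.5%) and 54.4% (51.3% to 57.5%). For Psmb8 with Psmb5 it was 82.4% (79.7% to 84.8%) and 72.8% (67.6% to 77.5%).

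**Figure D3:**
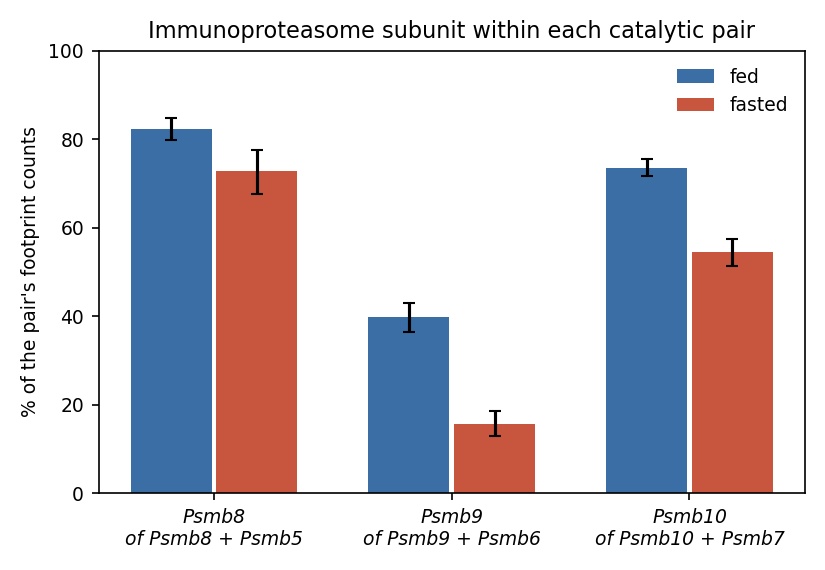
Share of the immunoproteasome subunit in the footprint counts of each catalytic pair, in percent, in the fed (blue) and fasted (red) library, 1 library each, with 95% exact binomial intervals. The share is lower in the fasted library in all 3 pairs, from 39.7% to 15.5% for Psmb9 and Psmb6.

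Each immunoproteasome subunit was lower in relation to its partner, 3.58-fold for Psmb9 over Psmb6 (0.279, interval 0.216 to 0.359), 2.33-fold for Psmb10 over Psmb7 (0.428, 0.365 to 0.502) and 1.75-fold for Psmb8 over Psmb5 (0.573, 0.421 to 0.781). Summed, the immunoproteasome subunits had 2.10 counts for each constitutive count fed and 0.804 fasted (ratio of ratios 0.383, interval 0.342 to 0.428). Psmb5 is the weakest of these references, since 19.6% of its windows occurred at 1 place and pseudogenes copy the rest. The level of Psmb8 against Psmb5 within a library is therefore not comparable as it stands. The same holds for the summed ratio, which includes Psmb5. Genes at the same place also overlap these references: 26.4% of the Psmb7 windows occur in Nek6 and 10.7% of the Psmb5 windows in Mir686. How reads in those stretches were assigned is not known. Whether reads fell on the same windows in both libraries was not tested, so the change in each ratio carries these limits as well.

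The remaining 11 subunits of the 20S core are shared by both kinds of proteasome. None of them was called higher or lower under TMM scaling, with a median log2 ratio of 0.023, and 1 was lower with plain CPM (median -0.30). Summed counts were 6537 fed and 5586 fasted, and the immunoproteasome subunits were 2.50-fold lower in relation to them (ratio of ratios 0.400, interval 0.368 to 0.435). Of 10 proteasome activators and assembly factors 3 were lower and 0 higher (median -0.32; 0.0017 over members with 200 counts). Psme2, a chain of the interferon-inducible PA28 activator, was lower (401 fed and 187 fasted counts, log2 ratio -0.75), as were the assembly chaperones Psmg1 (-0.96, -1.49 to -0.45) and Psmg4 (-1.39, -2.51 to -0.39).

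Set against the summed class I chains, the immunoproteasome subunits were 2.21-fold lower in the fasted library (ratio of ratios 0.453, interval 0.418 to 0.490). For the summed peptide loading genes against the chains it was 0.942 (0.896 to 0.990). That sum is mostly Tapbp, with 3153 of 4469 fed and 2521 of 3178 fasted counts, and does not describe Tap1 (log2 ratio -0.73) and Tap2 (-0.57). The chain sum is mixed too, with B2m at 54.4% of its counts fed and 46.9% fasted. B2m (log2 ratio -0.26) and the heavy chains (0.17 each) differed in sign under TMM scaling, so ratios with this sum describe no single chain. As a share of all gene counts, the 10 members took 0.511% fed and 0.371% fasted, and the class I chains made up most of both.

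The other class I heavy chains had a median above that of all genes. Of 28 listed, 17 were in the files and 13 had enough counts, with 3 higher, 2 lower and 8 neither, at a median log2 ratio of 0.51 and a mean of 0.13. With plain CPM 1 was higher and 3 lower (median 0.19). H2-Q1 (log2 ratio 1.16, 0.76 to 1.56; 85 fed and 148 fasted counts), H2-Q2 (0.86, 0.71 to 1.01; 649 and 921) and H2-Q6 (0.63; 72 and 87) were the higher ones. H2-T24 (-1.40, -2.75 to -0.22; 27 and 8) and H2-T22 (-1.15, -2.23 to -0.16; 34 and 12) were the lower ones.

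Most counts of this list were those of H2-T23, which encodes Qa-1 (1151 fed and 1323 fasted, log2 ratio 0.56, 0.44 to 0.67), and H2-T3, the thymus leukaemia antigen, a class I molecule of the intestinal epithelium (815 and 951, 0.58, 0.44 to 0.71). Both lay just under the threshold and had 0.23 and 0.26 with plain CPM. H2-Q4 had 335 and 373 counts (0.51), H2-Q7 60 and 34 (-0.46), H2-M3 56 and 51 (0.22), H2-Q5 47 and 45 (0.29), H2-Q10 32 and 36 (0.53) and H2-M2 21 and 10 (-0.71). These genes are close copies, with 24.9% of windows at 1 place in H2-Q7 and 43.7% in H2-T23, so single counts are uncertain.

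**Figure D4:**
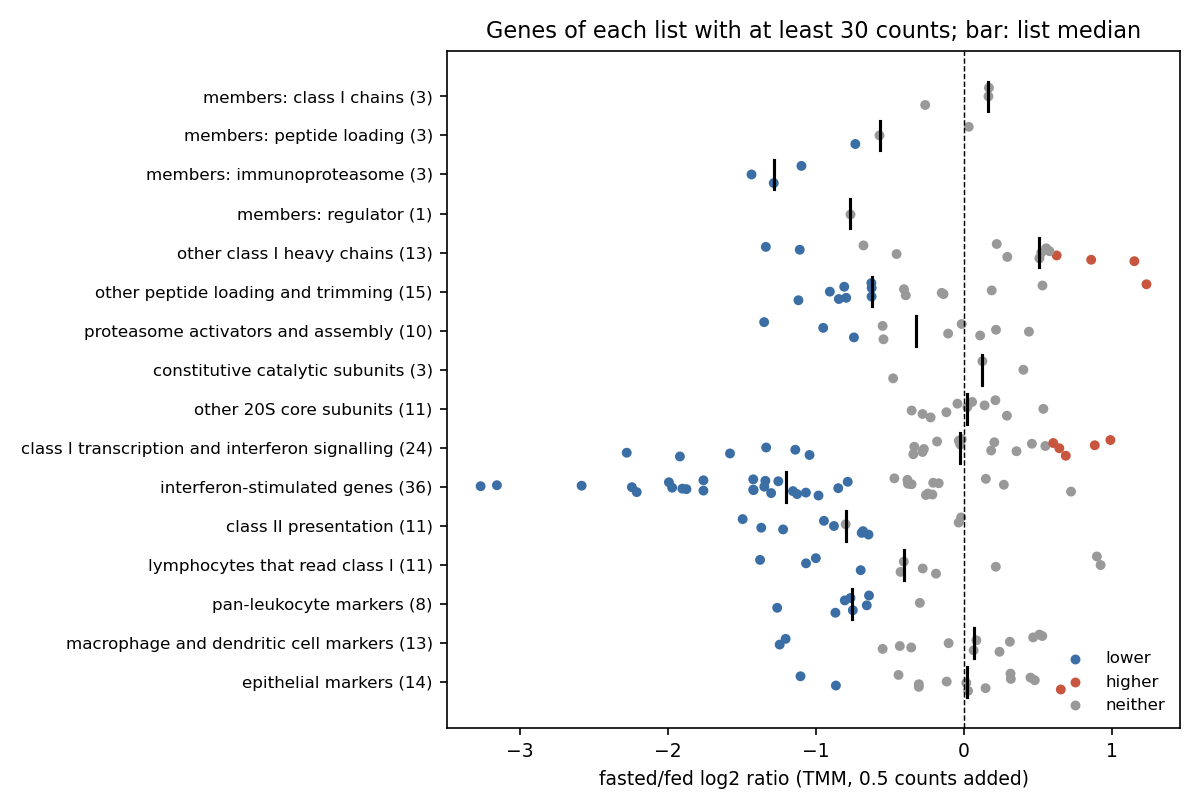
Fasted/fed log2 ratio (TMM, 0.5 counts added) of the genes with at least 30 counts in each list drawn, coloured by call. Bars are list medians, the dashed line is the median of all 11333 genes, and the number of genes is in brackets. Medians were -1.28 for immunoproteasome subunits, -1.20 for interferon-stimulated genes, 0.17 for class I chains and 0.023 for the other 20S core subunits. Not drawn are class I-like molecules and the B and plasma cell, endothelial, and smooth muscle and fibroblast markers (median of the last -1.18).

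Among 15 other factors of peptide loading and trimming, 8 were lower, 1 was higher and 6 were neither (median -0.62). The endoplasmic reticulum chaperones of the class I assembly line were lower: calreticulin, Calr (log2 ratio -1.12, -1.18 to -1.06), Canx, calnexin (-0.85, -0.91 to -0.78), and Hspa5, the general chaperone BiP (-0.91, -0.96 to -0.86). Lap3, a cytosolic leucine aminopeptidase, was higher (1.23, 1.18 to 1.29). Over this list the mean was -0.37.

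Genes that control class I transcription and interferon signalling had 5 of 24 higher, 6 lower and 13 neither (1 higher and 9 lower with plain CPM), at a median of -0.029 and a mean of -0.22. The shares over all genes were 17.3% higher and 17.3% lower. The lower ones included Irf1, an interferon-inducible activator of class I and immunoproteasome genes (1134 fed and 234 fasted counts, log2 ratio -1.92, -2.13 to -1.72), and Stat2, a transcription factor of type I interferon signalling (375 and 60, -2.29, -2.71 to -1.89). Higher were Ifngr1, a chain of the interferon gamma receptor (1504 and 2170, 0.88, 0.79 to 0.98), and Irf2, which competes with Irf1 (454 and 572, 0.69, 0.51 to 0.87). Neither of these reached 1.5-fold with plain CPM (0.56 and 0.37).

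Of 36 interferon-stimulated genes with enough counts, 24 were lower, 0 higher and 12 neither, at a median of -1.20. Zbp1, a sensor of Z-form nucleic acid, had 141 fed and 11 fasted counts (log2 ratio -3.32, -4.36 to -2.44), Oasl2 571 and 96 (-2.22, -2.54 to -1.90), and Parp14 1846 and 362 (-1.99, -2.16 to -1.83). The immunoproteasome subunits had a median of -1.28, close to that of this list and to that of smooth muscle and fibroblast markers (-1.18). The list's summed level was 1.60-fold lower, and that of the immunoproteasome subunits 2.29-fold. MHC class II presentation had 8 of 11 genes lower and 0 higher (median -0.80), including its master regulator Ciita (178 and 49 counts, -1.51, -1.99 to -1.04), H2-DMa (365 and 122, -1.23, -1.53 to -0.93) and the invariant chain Cd74 (-0.95, -0.99 to -0.91). The summed class I chains were thus 1.65-fold higher in relation to the summed class II genes in the fasted library (ratio of ratios 1.65, interval 1.61 to 1.70).

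**Figure D5:**
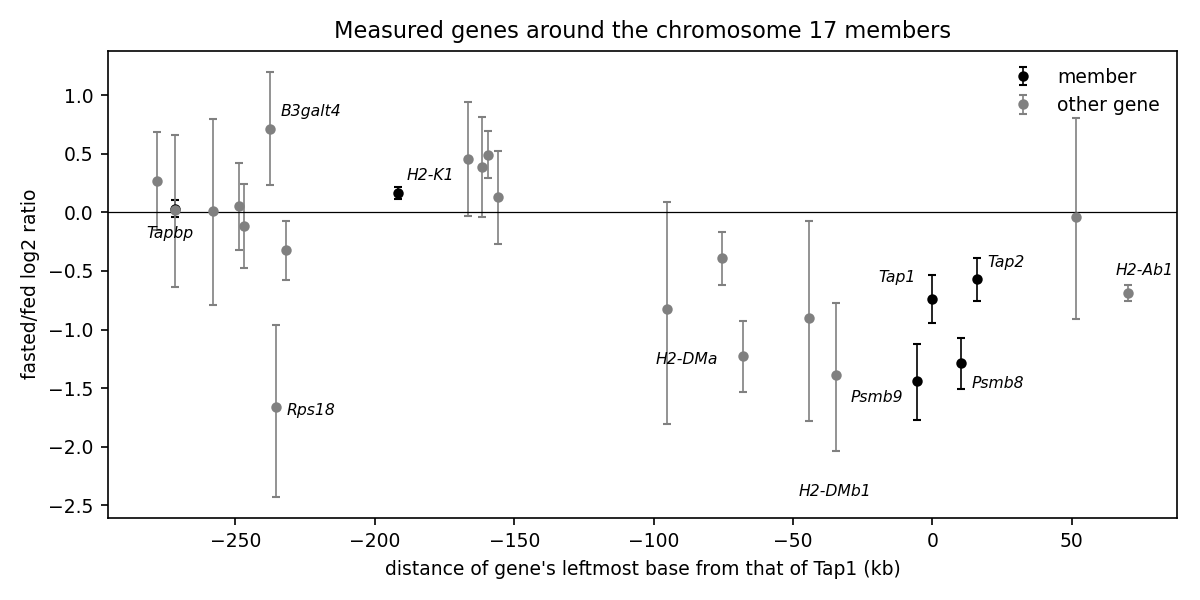
Fasted/fed log2 ratio with 95% exact counting intervals of the measured protein-coding genes around Tap1 on chromosome 17, by distance in kb from Tap1; members in black. Psmb9, Tap1, Psmb8 and Tap2 stand beside each other between -1.44 and -0.57, with lower class II genes on either side, while H2-K1 and Tapbp lie near 0 at distances of -192 and -272 kb.

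Psmb9, Tap1, Psmb8 and Tap2 are neighbours within the class II part of the MHC on chromosome 17. From Daxx to H2-Ab1 there were 25 measured protein-coding genes, of which 6 were members. Of the 19 others 5 were lower (H2-DMa, H2-DMb1, H2-DMb2, H2-Ab1 and Rps18) and 1 was higher (B3galt4), at a median log2 ratio of -0.043. Over all genes with enough counts 17.3% were lower and 17.3% higher. Psmb9, Tap1 and Psmb8, the chromosome 17 members called lower, sat in the stretch between H2-DMb1 and H2-Ab1. Tap2, which was not called, lies there too, as does H2-Ob with a log2 ratio of -0.043 (-0.91 to 0.81). Psmb10, on chromosome 8, was as low as the chromosome 17 subunits within counting error. Genes in this stretch were named after their values were seen.

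Pan-leukocyte markers were mostly lower in the fasted library, and macrophage and dendritic cell markers were mostly not called. In whole tissue, fewer cells of a type cannot be told apart from less footprint RNA per cell. Of 8 pan-leukocyte markers 7 were lower and 0 higher, and their summed level was 546 CPM fed and 336 CPM fasted, with no marker at 0. Ptprc, the common leukocyte antigen CD45, had 804 and 344 counts (log2 ratio -0.87, -1.06 to -0.69), Cd52 136 and 44 (-1.27, -1.80 to -0.77), and Lcp1 660 and 295 (-0.81, -1.01 to -0.61). In relation to the summed pan-leukocyte markers, the immunoproteasome subunits were 1.41-fold lower (ratio of ratios 0.711, interval 0.645 to 0.783) and the class I chains 1.57-fold higher (1.57, 1.47 to 1.67). The part of leukocytes in the members' values was not tested. These ratios to summed lists were added after the values were seen.

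Lymphocytes that read class I had 4 of 11 measured markers lower and 0 higher (summed 213 and 147 CPM, median -0.41; -1.0 over those with 200 counts). Of 18 listed markers 17 were in the files, none of them at 0. Gzmb, a cytotoxic granule protease (174 and 52 counts, -1.39, -1.86 to -0.93), Itgae, the integrin of intraepithelial lymphocytes (203 and 79, -1.01, -1.40 to -0.62), and Trdc, the delta chain of the T cell receptor (33 and 12, -1.10, -2.19 to -0.11), were lower. Macrophage and dendritic cell markers had 2 of 13 lower, Itgam (-1.25, -1.52 to -0.98) and Aif1 (-1.23, -2.06 to -0.46), and 0 higher, with summed levels of 627 and 620 CPM and a median of 0.066 (-0.10 over those with 200 counts, mean -0.13). Epithelial markers had 2 of 14 lower, Elf3 (-1.10) and Krt18 (-0.87), and 1 higher, Vil1 (0.65; 0.33 with plain CPM), with a median of 0.022. Beside the counts of these lists, 17.3% of all genes were lower and 17.3% higher. In relation to the summed epithelial markers the immunoproteasome subunits were 2.38-fold lower (ratio of ratios 0.420, interval 0.389 to 0.454). The summed class I chains were 1.08-fold lower in relation to these markers (0.928, 0.908 to 0.948). That chain sum joins B2m (log2 ratio -0.26) with H2-K1 and H2-D1 (0.17 each), so it gives no direction for the heavy chains.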

How the data were processed

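Footprint libraries from 1 fed and 1 fasted group were compared. The authors deposited raw read counts per gene symbol. Per the submitters' processing notes, mm10 was the build and the tools were HTSeq, STAR, Bowtie 1.1.2 and cutadapt, with no roles given; no annotation or strand setting is stated in the sources used here. Values given as NA were read as 0, and reads assigned to no gene were left out of library sizes. Counts were scaled with TMM in edgeR 4.0.16 (R 4.3.3), used for scaling only. Ratio intervals are 95% Clopper-Pearson intervals on the split of a gene's counts, level intervals exact Poisson, and ratios of ratios exact conditional intervals (SciPy 1.17.1). PCR-amplified reads are not independent molecules, so all intervals cover counting error only. In simulated libraries for this comparison (11317 genes measured) 95.9% of intervals held the simulated ratio, and 1.29% of unchanged genes were called. The simulation drew Poisson counts with 200 genes changed, without variation between animals or PCR copies. It checks how the intervals are computed and gives no rate of false calls for these libraries. List medians use log2 ratios with 0.5 counts added. Coding lengths, coordinates and windows come from GENCODE vM21 (GRCm38, the assembly of mm10). Windows of 28 bases were compared with all its transcripts, both strands, in place of the genome, which was not used here, and stretches shared with a gene at the same place were not counted as copies. Promoter sequences are RefSeq's, and only sequence before the listed start, or 30 bases, is printed.

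The members and the 16 other gene lists were chosen with earlier results of these data known. Genes were named by a rule: all members, the constitutive subunits, other class I heavy chains with at least 30 counts, and from each list up to 3 called genes in its commoner direction and 2 in the other, by the interval bound nearest to 1. A gene that this rule named is not reported here. Alternatives were plain CPM, DESeq2 1.42.0 size factors, upper-quartile factors, TMM without the 20 most abundant genes, other minimum counts, a 2-fold threshold, stricter confidence intervals, means for medians, and 30-base windows. With 2 libraries no gene was named for a like pattern.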

Additional observations from a re-analysis of the deposited data

How the results depend on the processing

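The 4 members called lower were also 4 with DESeq2 size factors, TMM without the 20 most abundant genes, no minimum count, a minimum of 200 and stricter confidence intervals, 5 with upper-quartile factors, 6 with plain CPM and 3 at 2-fold, where Tap1 (log2 ratio -0.73) was no longer called. No member was higher under any of these. Psmb8, Psmb9 and Psmb10 were lower under all of them, and the ratios of ratios for the catalytic pairs excluded 1 with stricter intervals too. Of all 11333 genes, 1962 were lower and 1956 higher, also with TMM without the 20 most abundant genes. Plain CPM gave 3536 lower and 1004 higher, DESeq2 size factors 1979 and 1943, and upper-quartile factors 2057 and 1872. Stricter confidence intervals gave 1371 and 1527, and a 2-fold threshold 1035 and 935. No minimum count gave 2167 and 2149, and a minimum of 200 counts 892 and 1187, where the number of genes with enough counts differs. Fed levels per kb of unique coding sequence were 1392 with 28-base and 1327 with 30-base windows for H2-K1, against 898 per kb of coding length, and 962 and 908 for H2-D1, against 522. Of 14 lists with at least 5 measured genes, 9 had a median below that of all genes, and 11 did with a minimum of 200 or with means. No paired analysis was possible because each group had 1 library. Depth limits Nlrc5 most. With n = 1, variation between animals was not measured.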

Other observations

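Class I-like molecules, which share the class I fold but mostly serve other tasks, were not called in either direction. Of 11 listed, 9 were in the files and 4 had enough counts. Fcgrt, the neonatal Fc receptor heavy chain that pairs with B2m and carries IgG across the suckling intestine, had 626 fed and 588 fasted counts (log2 ratio 0.27, 0.10 to 0.43). Hfe, which also pairs with B2m and takes part in iron sensing, had 29 and 37 (0.71, -0.034 to 1.46), Mr1, which presents vitamin B metabolites, 24 and 27 (0.53, -0.32 to 1.38), and Procr, the endothelial protein C receptor, 56 and 48 (0.13, -0.45 to 0.72). These 4 were chosen for naming after their values were seen.

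Other cell type lists differed in direction. B and plasma cell markers had 9 of 10 lower (median -0.80), with Mzb1 at -1.80, Jchain at -1.14 and Ms4a1 at -1.62. Smooth muscle and fibroblast markers had 9 of 12 lower (median -1.18), led by Col3a1 (-3.10), Col1a1 (-2.95) and Col1a2 (-1.80), and 2 higher, Dcn (0.83; 0.51 with plain CPM) and Pdgfra (0.72; 0.40). Endothelial markers had 4 of 8 higher and 0 lower (median 0.52), among them Pecam1 (1.23), Tie1 (0.91) and Vwf (0.60), and 1 was higher with plain CPM (median 0.20). Their part in the members' values was not tested.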
